A study of Bos taurus with 10 samples.

Results

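Transcripts of 3 contractile genes were followed in the longissimus, the long muscle of the back, of 10 steers: MYH1 (ENSBTAG00000018204), MYH2 (ENSBTAG00000007090) and ACTA1 (ENSBTAG00000046332). They were chosen by identifier, as the fast myosins and the skeletal actin, and all 3 were present among the 16963 genes of the deposited count table. The table carries no gene names and the RefSeq gene table used here pairs 0 of the 12295 identifiers tested with a symbol, so the names are those given when the rows were chosen and were not checked against an annotation. All animals were male progeny of an Angus by Simmental cross, aged 385 ± 5 days. The dams of 5 steers ate dried distillers grains and solubles while lactating (DDGS), and the dams of the other 5 ate the control diet (SBM). Each library was made from 1 animal's muscle, and no label names a sire, a sampling day or a batch. The age is the same label for every animal, and the diet was eaten by the dam, not by the steer. The aim was to learn whether the mother's diet during nursing was followed by a difference in the muscle of the grown offspring.

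Skeletal muscle shortens when myosin heads pull on actin filaments. The motor is the myosin heavy chain, and the isoform a fibre makes largely sets its speed and its fatigue. MYH1 encodes the type IIX chain of fast, glycolytic fibres, and MYH2 encodes the type IIA chain of fast fibres with more oxidative metabolism. ACTA1 encodes the actin of the thin filament in both kinds of fibre and in slow fibres, and serves here as the contractile reference. In cattle, longissimus is a mostly fast muscle in which the IIX to IIA balance is commonly used to describe fibre type. MYH1 and MYH2 lie next to each other in the RefSeq annotation (ARS-UCD2.0), in a cluster of related myosin genes, and MYH3, an embryonic myosin, follows MYH2. Their coding sequences are closely alike. How the counting treated reads that match both is not given in the sources used here, so part of each count may belong to the other gene.

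Library totals ran from 16942156 to 24936741 counts. The 2 most abundant identifiers of the table took 48.9% to 54.1% of each library. A count of 0 would have allowed up to 0.120 to 0.177 CPM (the count scaled to the size of its library), far below any value of these genes, and this limit covers counting error only. SBM replicate 4 stood apart on the second principal component of the 500 most variable genes, which held 15.2% of their variance, at -40.4 against -22.4 to 16.8 in the other 9 libraries. The first component, with 41.5% of the variance, had its lowest value, -41.6, in DDGS replicate 3 and its highest, 54.0, in SBM replicate 5. Results that rest on SBM replicate 4 are given with and without it. DDGS replicate 3 had the most genes at the table's lowest value of 1, 5078 against 2524 to 4699 elsewhere.

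MYH1, the type IIX chain, averaged higher in DDGS than in SBM steers, but the animals of each diet differed widely. CPM values of single genes were computed with TMM library sizes, which scale libraries so that most genes agree. MYH1 stood at 15245, 13474, 18174, 9319 and 11785 CPM in DDGS replicates 1 to 5. In SBM replicates 1 to 5 it stood at 14407, 11687, 7960, 4289 and 7114 CPM. The groups overlapped: SBM replicates 1 and 2 lay within the DDGS range, while SBM replicates 3, 4 and 5 lay below every DDGS library. Its mean was 13600 ± 3364 CPM with DDGS dams and 9092 ± 3976 CPM with SBM dams (SD, n = 5 each). On the first principal component, the libraries below 0 were DDGS replicates 1, 2, 3 and 5 and SBM replicate 1. They had 11785 to 18174 CPM of MYH1. Those above 0, DDGS replicate 4 and SBM replicates 2 to 5, had 4289 to 11687 CPM. The order was not steady: SBM replicate 4, lowest in MYH1, lay at 2.02, and SBM replicate 5, at 7114 CPM, lay at 54.05. No correlation of MYH1 with the component was computed. The part of that component in the diet difference of MYH1 was not tested. In bulk muscle, fewer fibres of a type and less RNA per fibre cannot be told apart.

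MYH1 did not pass the test between the diets. Its fitted log2 difference, DDGS over SBM, was 0.58 ± 0.27 (standard error; edgeR's quasi-likelihood test, Benjamini-Hochberg adjusted p = 0.996 over 12295 genes). The unadjusted 95% interval of that difference ran from 0.0015 to 1.16. At an unadjusted edgeR p of 0.0495, MYH1 was 1 of 460 genes under 0.05, and these were 3.74% of the genes tested, 1.42% with higher and 2.32% with lower values in DDGS. No gene passed the adjusted threshold of 0.05 in edgeR, which is 0% of those tested. DESeq2 called 15 of the 13807 genes it gave an adjusted p, none of them a member. In CPM the diets did not overlap for 0.781% of the genes tested, and for none of the 3 members. The fitted MYH1 log2 difference was above 0 in all 20 alternative fits, from 0.40 without SBM replicate 4 to 0.81 without SBM replicate 1. The adjusted p in those 20 fits was 0.636 to 1.

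MYH2, the type IIA chain, differed little between the diets on average, and 1 SBM animal stood far above the rest. It stood at 11499, 8654, 9643, 6984 and 6120 CPM in DDGS replicates 1 to 5. In SBM replicates 1, 2, 3 and 5 it stood at 7114, 4990, 5785 and 5770 CPM. SBM replicate 4 was the exception, at 15582 CPM, the highest MYH2 value of the 10 libraries. Averaged by diet, MYH2 was at 8580 ± 2136 CPM for DDGS and 7848 ± 4390 CPM for SBM (SD, n = 5 each), and the SBM range enclosed the DDGS range. The SBM mean without replicate 4 was 5915 ± 882 CPM (SD, n = 4).

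The MYH2 difference between the diets depended on that library. With all animals its log2 difference was 0.13 ± 0.29 (standard error; edgeR adjusted p = 0.996), with a 95% interval from 0.709-fold to 1.69-fold. Leaving out SBM replicate 4 gave 0.54 ± 0.21 (edgeR adjusted p = 0.974). Limma voom with sample weights, which kept all 10 libraries, gave 0.45 ± 0.22 (adjusted p = 0.875). Without DDGS replicate 1, the highest DDGS library, the value was -0.000799, so no direction is given for MYH2. Without SBM replicate 2 it was 0.0032, and without SBM replicates 5 and 3 it was 0.027 and 0.031.

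ACTA1, the thin filament actin, varied least. It stood at 8763, 8638, 9870, 7126 and 7182 CPM in DDGS replicates 1 to 5, and at 10673, 10732, 8933, 8536 and 7319 CPM in SBM replicates 1 to 5. The groups overlapped, with only SBM replicates 1 and 2 above every DDGS library. On average ACTA1 was at 8316 ± 1164 CPM for DDGS and 9239 ± 1463 CPM for SBM (SD, n = 5 each). Its log2 difference was -0.15 ± 0.17 (standard error; edgeR adjusted p = 0.996), with a 95% interval from 0.706-fold to 1.15-fold. SBM replicate 4, with the outlying MYH2 value, had an ACTA1 value within the range of the other SBM animals.

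**Figure D1:**
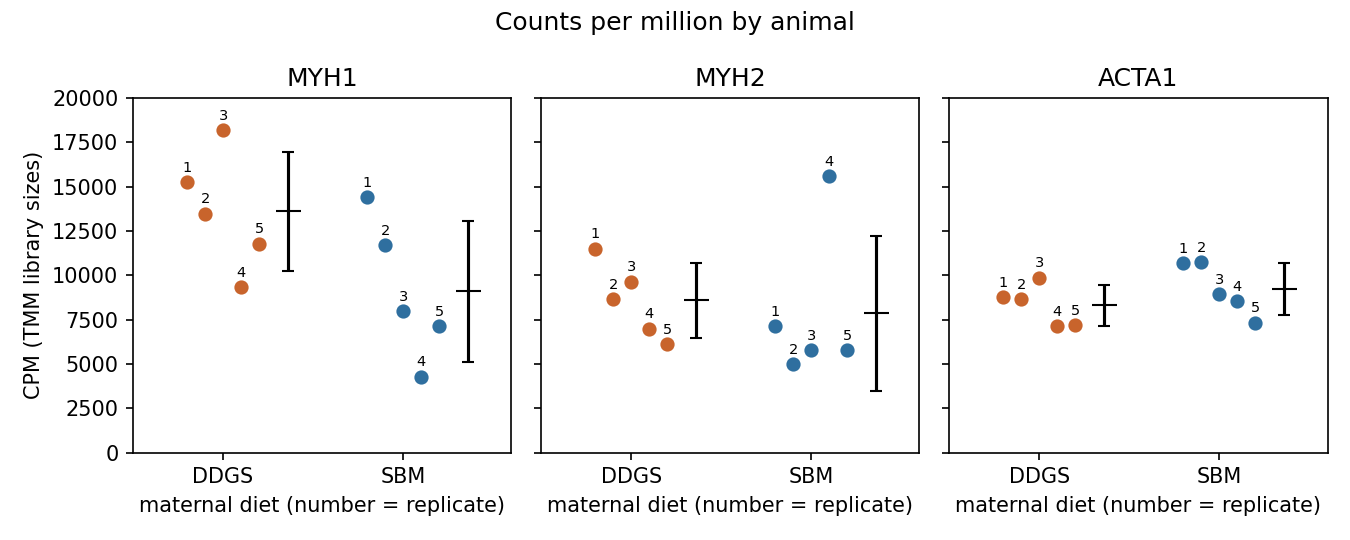
CPM of MYH1, MYH2 and ACTA1 (vertical axis, TMM library sizes) in each animal, 1 point per library with its replicate number, and the mean with its SD beside each group of 5. SBM replicate 4 is the lowest MYH1 point, at 4289 CPM, and the highest MYH2 point, at 15582 CPM, and its ACTA1 value of 8536 CPM lies among the others.

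**Figure D2:**
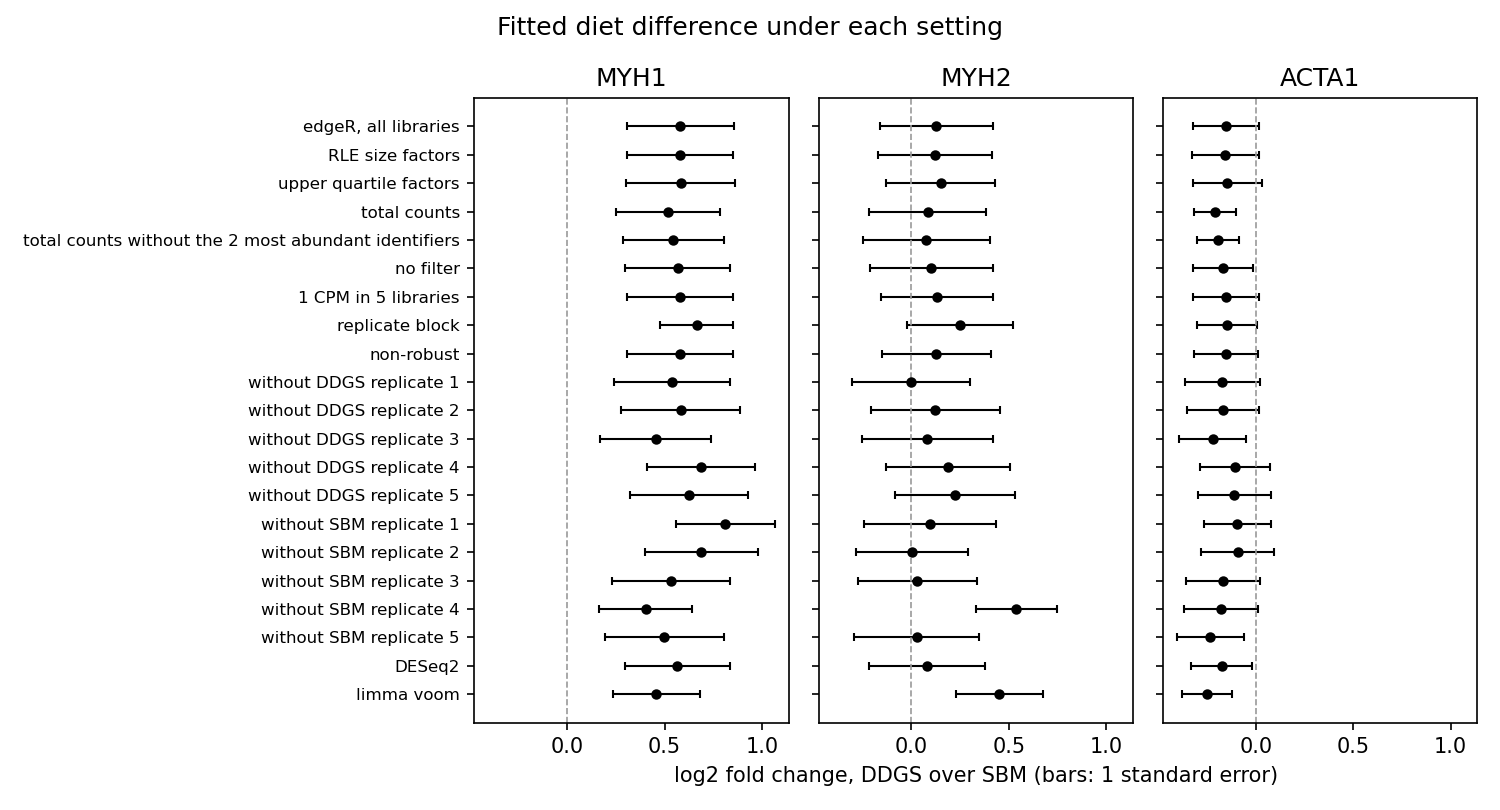
Fitted log2 fold change, DDGS over SBM, of each gene (horizontal axis, bars are 1 standard error) under every setting, including each library left out and the replicate block. MYH1 stays above 0 and ACTA1 below 0 in each setting shown, while MYH2 ranges from -0.000799 without DDGS replicate 1 to 0.54 without SBM replicate 4; none of these values passed the adjusted threshold.

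The ratio of MYH1 to MYH2 counts, the fibre type measure, was above 1 in 9 animals and far below 1 in the tenth. Both counts come from the same library, so the ratio needs no scaling between libraries. The counts were not divided by transcript length, and the ratio is read between animals, not as the relative number of the 2 transcripts. In DDGS replicates 1 to 5 it was 1.33, 1.56, 1.88, 1.33 and 1.93. In SBM replicates 1, 2, 3 and 5 it was 2.03, 2.34, 1.38 and 1.23. In SBM replicate 4 it was 0.275, with 80027 MYH1 counts and 290731 MYH2 counts. The highest and the lowest ratio of all 10 animals were thus both in the SBM group.

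As a share, MYH1 made up 57.0% to 65.8% of the combined MYH1 and MYH2 counts in DDGS libraries and 55.2% to 70.1% in SBM libraries other than replicate 4. In SBM replicate 4 the share was 21.6% (95% Wilson interval 21.5% to 21.7%), and the next lowest share, in SBM replicate 5, was 55.2% (55.0% to 55.4%). These intervals cover counting error only.

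The diets did not differ detectably in the MYH1 to MYH2 ratio. The log2 ratio averaged 0.66 ± 0.26 for DDGS and 0.23 ± 1.23 for SBM (SD, n = 5 each), which is 0.43 higher for DDGS (two-sided exact permutation test, p = 0.651, adjusted over 4 ratios 0.651). With SBM replicate 4 left out the difference changed sign, to -0.088 (exact permutation p = 0.714), with 0.75 ± 0.44 in the remaining SBM libraries (SD, n = 4). The median ratio was 1.56 for DDGS and 1.38 for SBM, or 1.70 for SBM without replicate 4.

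**Figure D3:**
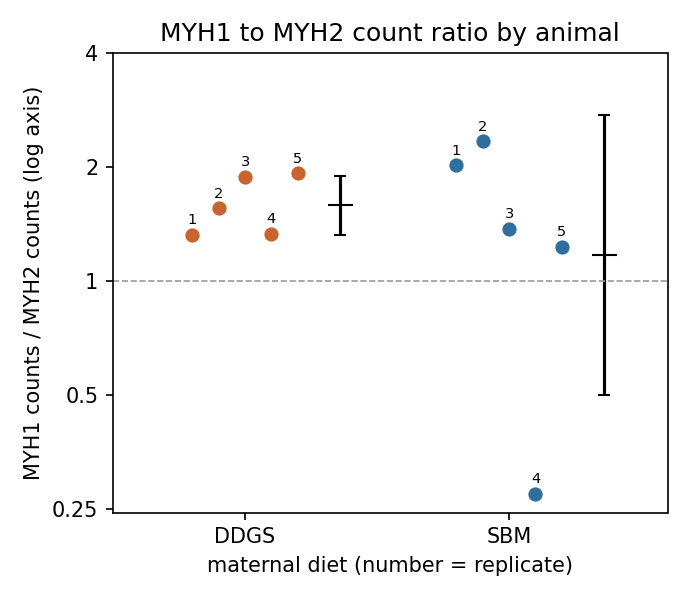
MYH1 counts divided by MYH2 counts in each animal (vertical log axis, dashed line at 1), with the mean and SD of the log2 ratio drawn beside each group of 5. The points lie between 1.23 and 2.34 except SBM replicate 4, at 0.275.

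Counts of each myosin were also set against ACTA1 in the same library. The MYH1 to ACTA1 count ratio was 1.74, 1.56, 1.84, 1.31 and 1.64 in DDGS replicates 1 to 5, and 1.35, 1.09, 0.891, 0.502 and 0.972 in SBM replicates 1 to 5. DDGS replicate 4 and SBM replicate 1 were the only animals whose order was crossed. The log2 ratio averaged 0.68 ± 0.19 for DDGS and -0.13 ± 0.53 for SBM (SD, n = 5 each), which is 0.81 higher for DDGS (two-sided exact permutation test, p = 0.0159, adjusted over 4 ratios 0.0317). The smallest p this design allows is 0.00794, and the 4 ratios share counts, so they are not separate observations. The difference was 0.60 without SBM replicate 4 (exact permutation p = 0.0317, adjusted over 4 ratios 0.0423).

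A high ratio to ACTA1 in DDGS was not particular to MYH1. Among the 448 genes other than ACTA1 that averaged 100 CPM or more, MYH1 and MYH2 included, 28.6% had a count ratio to ACTA1 with an exact permutation p under 0.05, and all 128 of them were higher in DDGS. The median log2 difference of the 448 was 0.24, and ACTA1, the shared denominator, averaged lower in DDGS. Over all 12294 genes other than ACTA1, 7.96% had such a p (7.16% were higher in DDGS), and the adjusted p of the MYH1 ratio over all of them was 0.498. None of the 448 had a difference above that of MYH1.

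MYH2 relative to ACTA1 was 1.31, 1.002, 0.977, 0.980 and 0.852 in DDGS replicates 1 to 5. In SBM replicates 1 to 5 it was 0.667, 0.465, 0.648, 1.83 and 0.788. Only SBM replicate 4 reached into or above the DDGS range, and the other SBM libraries all lay below the lowest DDGS library. The log2 ratio was 0.38 higher for DDGS (two-sided exact permutation test, p = 0.302, adjusted over 4 ratios 0.402). The difference was 0.69 without SBM replicate 4 (exact permutation p = 0.0159, adjusted over 4 ratios 0.0317). That p is the smallest possible with 1 library left out, and the library left out held the only contrary value. In 13 of 14 alternatives this ratio did not pass, so no diet difference is read from the setting that did. Of the 448 abundant genes, 75 had a larger difference in their ratio to ACTA1 than MYH2 had with all animals.

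Both myosins together, relative to ACTA1, varied less within each diet than either alone, with coefficients of variation of 11.2% for DDGS and 18.2% for SBM. The ratio of summed MYH1 and MYH2 counts to ACTA1 counts was 3.05, 2.56, 2.82, 2.29 and 2.49 in DDGS replicates 1 to 5 and 2.02, 1.55, 1.54, 2.33 and 1.76 in SBM replicates 1 to 5. Here SBM replicate 4, with little MYH1 and much MYH2, was the highest of its group, and only it and DDGS replicate 4 were crossed. The log2 ratio was 0.53 higher for DDGS (two-sided exact permutation test, p = 0.0159, adjusted over 4 ratios 0.0317). Ratios to ACTA1 often passed here: 28.6% of the 448 abundant genes had an exact permutation p under 0.05, all higher in DDGS. The sum was not set against those genes. For the summed ratio and for MYH1 to ACTA1 the adjusted p rose to 0.0635 without any 1 of 8 libraries. It stayed under 0.05 without DDGS replicate 4 and without SBM replicate 4. Leaving out any 1 library also raises the smallest unadjusted p of this permutation test, to 0.0159. With medians in place of means the adjusted p was 0.0952 for both. Summed MYH1 and MYH2 averaged 22179 ± 5134 CPM for DDGS and 16940 ± 3752 CPM for SBM (SD, n = 5 each), and SBM replicate 4, at 19871 CPM, lay between these means.

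**Figure D4:**
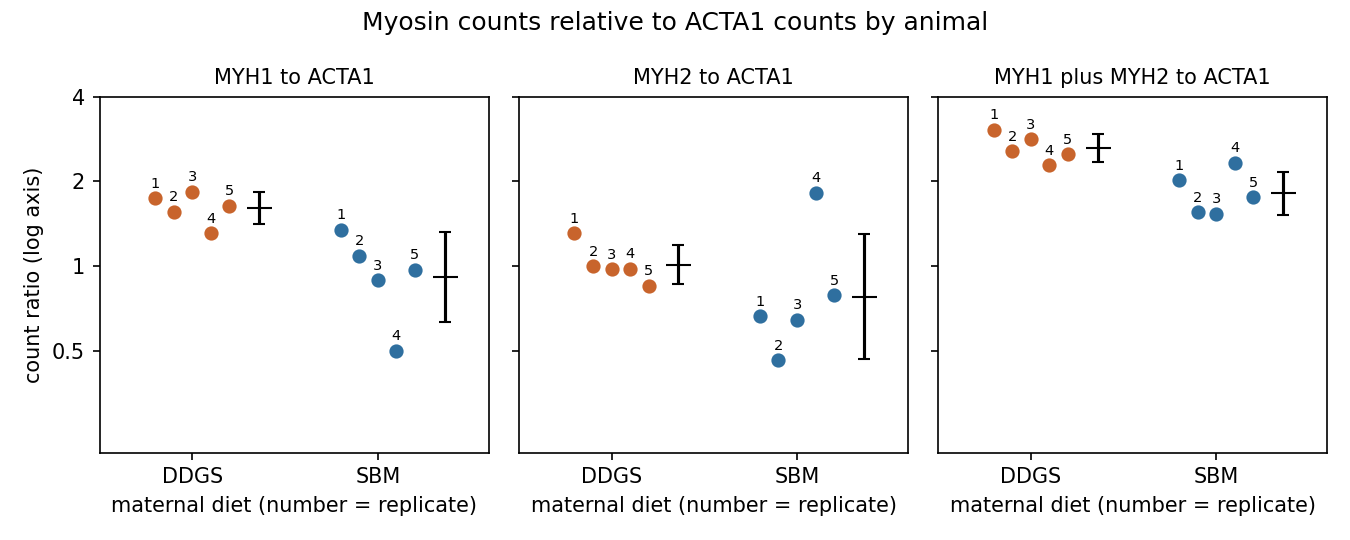
Count ratios of MYH1, MYH2 and their sum to ACTA1 in each animal (vertical log axis), with the mean and SD of the log2 ratio beside each group of 5. SBM replicate 4 is the lowest MYH1 ratio, 0.502, and the highest MYH2 ratio, 1.83, and its summed ratio of 2.33 lies beside DDGS replicate 4, at 2.29.

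The myosins varied more between animals of a diet than ACTA1 did. The pooled within-group SD of log2 CPM was 0.54 for MYH1, 0.53 for MYH2 and 0.22 for ACTA1. Of the genes within 2-fold of the mean CPM of each, 0 of 8 were more variable than MYH1, 2 of 13 were more variable than MYH2, and 10 of 10 were more variable than ACTA1. Each of these sets includes the other members, so these counts partly repeat the SDs above. Among 449 genes with at least 100 CPM the median SD was 0.27, and 36 genes exceeded MYH1, 38 exceeded MYH2 and 317 exceeded ACTA1. Leaving out SBM replicate 4 gave an SD of 0.42 for MYH1 and 0.30 for MYH2, and 200 of the 449 genes then exceeded MYH2 while 60 exceeded MYH1. Of the genes within 2-fold, 7 of 13 then exceeded MYH2, 0 of 8 exceeded MYH1 and 9 of 10 exceeded ACTA1. The ACTA1 SD was 0.14 with plain library totals in place of TMM.

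The 3 genes were also among the most counted of the table in every library, without division by length. MYH1 ranked 5 to 8 of 16963 in 9 libraries and 15 in SBM replicate 4. MYH2 ranked 7 to 14 in 9 libraries and 5 in SBM replicate 4, a place that MYH1 held in other libraries. ACTA1 ranked 6 to 9 in all 10. The members together took 2.25% to 3.40% of a library's counts.

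Across animals, no relation between MYH1 and MYH2 passed the test. Over the 10 libraries Pearson's r of log2 CPM was -0.16 (permutation p = 0.654) and Spearman's rho was 0.33 (permutation p = 0.350), with adjusted p of 0.929 and 0.525 over 3 pairs of genes. Without SBM replicates 4 and 5, the libraries farthest from the median MYH1 level, r was 0.68. Without SBM replicate 4 alone r was 0.70 (permutation p = 0.0373, adjusted p = 0.112 over 3 pairs), so the sign of Pearson's r rests on that animal. Spearman's rho was above 0 with that animal and also without it, at 0.83, which was not tested. CPM values of a library share its scaling, which adds a common part to these correlations.

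**Figure D5:**
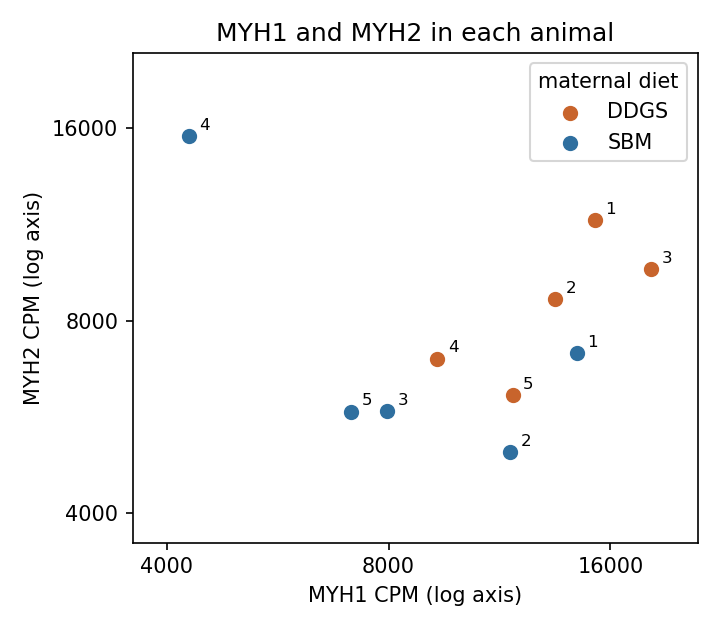
MYH1 CPM (horizontal log axis) against MYH2 CPM (vertical log axis), 1 point per animal with its replicate number, coloured by the dam's diet. In 9 animals the points spread from lower left to upper right, and SBM replicate 4 lies alone at the upper left, at 4289 CPM of MYH1 and 15582 CPM of MYH2.

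ACTA1 varied with MYH1 among animals of the same diet, under some scalings of the libraries, while over all animals it followed neither myosin in a relation that passed the test. For MYH1 and ACTA1 r was 0.40 (permutation p = 0.255) and rho was 0.43 (permutation p = 0.219), with adjusted p of 0.764 and 0.525 over 3 pairs. Over all animals r was 0.41 without SBM replicates 4 and 5, and 0.089 with plain library totals. The fitted diet differences of the 2 genes had opposite signs, and neither passed the test. For deviations from the diet means, examined after seeing the data, r of MYH1 and ACTA1 was 0.78 (exact permutation within diets, p = 0.0156, adjusted p = 0.0469 over 3 pairs). That r was 0.73 to 0.93 without any 1 library, the highest without SBM replicate 4, and 0.66 to 0.79 under other scalings. It no longer passed with plain library totals (adjusted exact permutation p = 0.184), with totals that leave out the 2 most abundant identifiers (0.22) or with upper quartile factors (0.0563). For deviations of MYH1 and MYH2 r was -0.37 (adjusted exact permutation p = 0.649), and for MYH2 and ACTA1 it was 0.13 (adjusted exact permutation p = 0.777). For MYH2 and ACTA1 over all animals r was 0.032 (permutation p = 0.929) and rho was -0.067 (permutation p = 0.864), with adjusted p of 0.929 and 0.864. It was 0.096 without DDGS replicate 1 and SBM replicate 4, and -0.45 with plain library totals in place of TMM, so no direction is given for this pair.

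Some genes followed each member more closely, as a description chosen by likeness and without a test. Among 2764 other genes that averaged 20 CPM or more, the nearest to MYH1 over the 10 libraries were ENSBTAG00000005186, with a Pearson r of log2 CPM of 0.93, and ENSBTAG00000005462, also at 0.93. Both were lowest in SBM replicate 4, at 48.8 CPM against 55.7 to 85.8 and at 26.4 CPM against 35.8 to 56.6 elsewhere, and their r without that library was 0.89 and 0.84. The nearest to MYH2 were ENSBTAG00000000421 and ENSBTAG00000019914, both with r of 0.92. Like MYH2 both were highest in SBM replicate 4, at 59.4 CPM against 26.1 to 43.4 and at 30.3 CPM against 17.2 to 27.9, with r of 0.85 and 0.88 without it. The nearest to ACTA1 were ENSBTAG00000015591, with r of 0.92, and ENSBTAG00000030301, with r of 0.88. In all, 46 genes reached r of 0.8 with MYH1, 22 with MYH2 and 15 with ACTA1.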

How the data were processed

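The authors deposited whole-number read counts per gene, 1 column per animal, not scaled to a common total. Per the submitters' processing notes, TopHat2 2.0.9, Bowtie2, FastQC 0.10.1 and HTSeq 0.5.3p7 were used with UMD3.1, and per the labels' protocols the library kit was TruSeq Stranded Total RNA. The sources used here do not give the annotation release, the strand setting or the treatment of reads shared by related genes. The lowest value of the table is 1. No per-sample column was left unused (0).

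Counts of all genes were tested with edgeR 4.0.16 (quasi-likelihood, TMM, default expression filter, robust, R 4.3.3), group as the only term, threshold 0.05. Ratios were tested by exact two-sided permutation (SciPy 1.17.1), and correlations with 100000 permutations. Alternatives were other scalings and filters, a replicate block, each library left out, non-robust estimates, limma 3.58.1, DESeq2 1.42.0, and, for the ratios, medians, linear ratios and 1 added count. Alternatives for correlations (deviations from diet means included) and spread, and the ratios of all genes to ACTA1, were chosen after seeing the data. Fits were tested on simulated data. Members and lists were chosen with earlier results of these data known. Named were the members and the 2 genes most correlated with each (log2 CPM, prior count 2). Lists of other fibre type genes and of cell type markers were not run, since identifiers could not be paired with symbols, so the tissue was not checked by markers. Replicates are separate animals by label.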

Additional observations from a re-analysis of the deposited data

Results flagged for a closer look

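SBM replicate 4 was far from the other 4 animals of its group, by Dixon's criterion, in its MYH2 level, 15582 CPM against 4990 to 7114 CPM, and in its MYH2 to ACTA1 count ratio, 1.83 against 0.465 to 0.788. These were 2 of 26 groups of 5 values examined, where chance gives about 1 in 20, and the 2 values share the MYH2 count. On the log2 scale, on which the ratios were tested, its MYH2 to ACTA1 ratio did not meet the criterion (gap of 0.614 of the range, limit 0.71). Its MYH1 to MYH2 ratio of 0.275 did not meet the criterion on either scale. The gap was 0.463 of the range for the ratio itself and 0.700 for its log2, just under the limit of 0.71.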

How the results depend on the processing

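Over 14 results and 217 alternatives, 184 were counted as the same. For fold changes, ratios and correlations this meant the same direction and the same side of the threshold. For the number of genes called it meant staying at 0. For the SDs of log2 CPM it meant a change smaller than the main value, a limit that is hard to miss. The MYH1 to ACTA1 and summed ratios were the same in only 4 of 14 alternatives each. No fitted change of MYH1, MYH2 or ACTA1 passed the adjusted threshold in any alternative. With the replicate number as a block the log2 fold changes were 0.67, 0.25 and -0.15 (edgeR adjusted p = 0.998). The MYH1 to ACTA1 and summed ratios kept 0.81 and 0.53 (exact sign-flip test, adjusted p = 0.25 for both). With 5 pairs this test cannot reach 0.05, since its smallest p is 0.0625. The unadjusted sign-flip p was 0.0625 for MYH1 to ACTA1 and 0.125 for the sum, so only the first was at that limit. The labels pair no animals, and same-numbered libraries correlated at -0.0704 to 0.0694 in their deviations; 2 of 5 correlated best with their own number. With medians these ratios differed by 0.76 and 0.54. Leaving out single libraries gave 0.60 to 0.95 for MYH1 to ACTA1, 0.47 to 0.62 for the sum, 0.19 to 0.69 for MYH2 to ACTA1, and -0.088 to 0.68 for MYH1 to MYH2. The MYH2 log2 fold change was -0.000799 to 0.54, that of MYH1 0.40 to 0.81 and that of ACTA1 -0.23 to -0.092. The number of genes called was 0 to 1 without single libraries (1 without DDGS replicate 4), and 15 in DESeq2 with 2 higher in DDGS. Without single libraries Pearson's r of MYH1 and MYH2 was -0.32 to 0.70, that of MYH1 and ACTA1 0.31 to 0.54 and that of MYH2 and ACTA1 -0.092 to 0.31. With library totals these were -0.45, 0.089 and -0.45, and with totals that leave out the 2 most abundant identifiers -0.39, 0.022 and -0.29. For deviations from the diet means r of MYH1 and ACTA1 was 0.78. The cause of these shifts was not tested. Each member had at least 80027 counts in every library, and each diet had 5 animals with 1 library each. The parts of depth and of spread between animals in these shifts were not tested.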
